A study of Homo sapiens with 8 samples.

Results

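The response of splicing to PMA, a phorbol ester that stands in for diacylglycerol and so switches on protein kinase C, was examined in JSL1 cells depleted of the splicing regulator CELF2. JSL1 is a monoclonal T lymphocyte line made from the human Jurkat line. Depletion came from doxycycline-inducible short hairpin RNAs, integrated stably by lentivirus. The depleted cells were left unstimulated or received 20 ng/mL of PMA for 48 hours. Control cells in the same 2 states were read beside them. Each of the 4 groups had 2 libraries of polyadenylated RNA, 8 in all. Whether control cells received doxycycline or carried another hairpin, and whether the 2 libraries came from separate cultures, was not given in the sources used here.

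T cell stimulation is known to remodel splicing as well as transcription. The protein kinase C and Ras pathways that PMA switches on act on splicing regulators, and the best known outcome in T cells is skipping of the variable exons of CD45. Members of the CELF family bind GU-rich sequences near splice sites and can promote either inclusion or skipping, and CELF2 itself is known to increase on T cell activation. The depleted cells therefore show the PMA response when less of this regulator is made.

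Splicing was read in units called local splicing variations (LSVs). Each groups the junctions, and any retained intron, that leave 1 exon (a source LSV) or enter 1 exon (a target LSV). The deposited tables give the share of each choice within its LSV, in percent, as 1 pooled value per group. The PMA change of a junction is its share with PMA minus its share without, in percentage points. The 87517 LSVs listed with the same junctions in both tables, in 10517 genes, were all kept, out of 91480 LSVs without PMA and 91729 with PMA. With no value per library there is no spread between replicates and no test. A change was counted at 20 points or more, and "rose" and "fell" below mean only a change of at least that size between pooled values. The tables' shares stop at 2.5% and 97.5%, so these values mean nearly absent and nearly complete use. The tables hold no expression values, so the degree of CELF2 depletion was not checked here, and the identity of the cells only by which genes have an LSV. Of 12 T cell markers 9 were listed, among them CD3D, CD3E, CD3G, LCK and ZAP70. None of 6 myeloid, 3 erythroid, 4 epithelial and 4 fibroblast markers was listed in both tables, and of 6 B cell markers CD79A and BLK were.

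The exons that carry several of the results are shown here because their inclusion is the measured quantity. Sequences are from GENCODE release 29 transcripts, matched to the tables' hg19 exons by gene, exon length and the lengths of both flanking introns, and of 12 exons looked for 8 matched. Capitals mark the alternative exon and lower case 15 bases of neighbouring coding sequence, given on 1 side only for PTPRC. First come exons 4 and 6, of the 3 variable exons of PTPRC, the gene of the CD45 phosphatase, on the plus strand of chromosome 1, which PMA turned toward skipping.
PTPRC exon 4, chr1:198665841-198666038: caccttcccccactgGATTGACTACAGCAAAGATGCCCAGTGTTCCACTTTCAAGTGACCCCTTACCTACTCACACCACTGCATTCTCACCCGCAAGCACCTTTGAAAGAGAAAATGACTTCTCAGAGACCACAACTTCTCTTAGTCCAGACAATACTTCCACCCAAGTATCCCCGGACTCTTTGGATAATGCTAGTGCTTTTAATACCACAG
PTPRC exon 6, chr1:198671516-198671659: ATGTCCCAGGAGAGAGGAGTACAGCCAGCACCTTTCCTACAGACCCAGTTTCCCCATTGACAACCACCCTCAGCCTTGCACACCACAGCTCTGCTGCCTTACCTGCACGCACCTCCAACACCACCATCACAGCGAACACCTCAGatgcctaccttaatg
Next come a short MALT1 exon and the exons of ARFIP1 and CENPE, whose inclusion rose, and the exon of RPGRIP1L, whose inclusion fell, each read 5′ to 3′ along its gene.
MALT1, chr18:56378153-56378185, plus strand: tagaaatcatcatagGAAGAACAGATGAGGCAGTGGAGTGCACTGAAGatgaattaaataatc
ARFIP1, chr4:153791905-153792000, plus strand: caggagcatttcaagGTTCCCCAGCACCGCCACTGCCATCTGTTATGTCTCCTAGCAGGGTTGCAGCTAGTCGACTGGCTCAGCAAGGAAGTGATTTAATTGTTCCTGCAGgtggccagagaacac
CENPE, chr4:104064405-104064563, minus strand: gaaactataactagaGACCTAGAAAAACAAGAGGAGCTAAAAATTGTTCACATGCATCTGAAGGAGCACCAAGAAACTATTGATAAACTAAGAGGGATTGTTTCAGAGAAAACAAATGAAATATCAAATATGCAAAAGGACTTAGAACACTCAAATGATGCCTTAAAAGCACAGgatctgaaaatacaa
RPGRIP1L, chr16:53672222-53672323, minus strand: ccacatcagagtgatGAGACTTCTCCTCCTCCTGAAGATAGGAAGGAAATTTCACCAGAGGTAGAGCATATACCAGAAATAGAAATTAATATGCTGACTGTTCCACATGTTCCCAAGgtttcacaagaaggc
All of the 6 exons shown lie inside coding sequence and have a length that is a multiple of 3, so that each can be skipped without a change of reading frame. Their lengths run from 33 nucleotides in MALT1 to 198 in PTPRC exon 4, and their GC content from 34.6% in CENPE to 56.9% in PTPRC exon 6.

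In depleted cells 1634 of 87517 LSVs changed by 20 points or more with PMA, which is 1.87%. These LSVs lay in 1196 of 10517 genes (11.4%), and 864 of these genes had 1 such LSV. In control cells the same rule took 2264 LSVs (2.59%). Measured in the same way, depletion changed 2080 LSVs without PMA (2.38%) and 3359 with PMA (3.84%), comparisons that share groups with the PMA changes. Most LSVs were nearly still in the depleted cells, since 78.5% stayed within 5 points. Of those past the rule 360 changed by 30 points or more and 25 by 50 points or more. The rule fell in a dense part of the range, with 246 LSVs between 20 and 21 points and 292 between 19 and 20. The leading choice of the LSV became another one in 510 of the 1634 (31.2%). Genes past the rule had a median of 10 LSVs, against 7 over all genes, so genes with more LSVs had more chances to be counted.

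The number of reads behind a pooled share is not in the tables. The authors' deposited tables also give an expected difference between depleted and control cells, which their model draws toward 0 where evidence is thin. For 1414 of the 1634 LSVs the share at the changed junction differed by at least 10 points between depleted and control cells in 1 of the tables. In 934 of these the authors' expected difference was at least 0.8 of the difference between the shares, and in 240 it was under 0.5. This ratio was taken only in the state with the larger difference, so the other state of the PMA change was left unchecked. For the other 220 LSVs depleted and control shares were too alike for this reading. Values with a low ratio are named as such below.

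Event classes differed in how often they passed the rule in depleted cells. LSVs that combine a retained intron with more than 1 junction passed most often, with 432 of 12493 (3.46%). Exon-skipping LSVs of 3 or more junctions followed with 197 of 7782 (2.53%), and LSVs of mixed type with 520 of 24401 (2.13%). Simple retained introns gave 220 of 13824 (1.59%), alternative 5′ splice sites 25 of 2088 (1.2%), cassette LSVs 220 of 23404 (0.94%) and alternative 3′ splice sites 20 of 3525 (0.567%). An LSV with more choices has more chances to be counted, and the median largest change over all LSVs was 3.3 points in complex intron LSVs and 0.1 in cassette LSVs. Control cells gave the same order of classes. The classes' shares were higher in control than in depleted cells except for alternative 3′ sites, where control cells had 19 LSVs (0.539%).

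**Figure D1:**
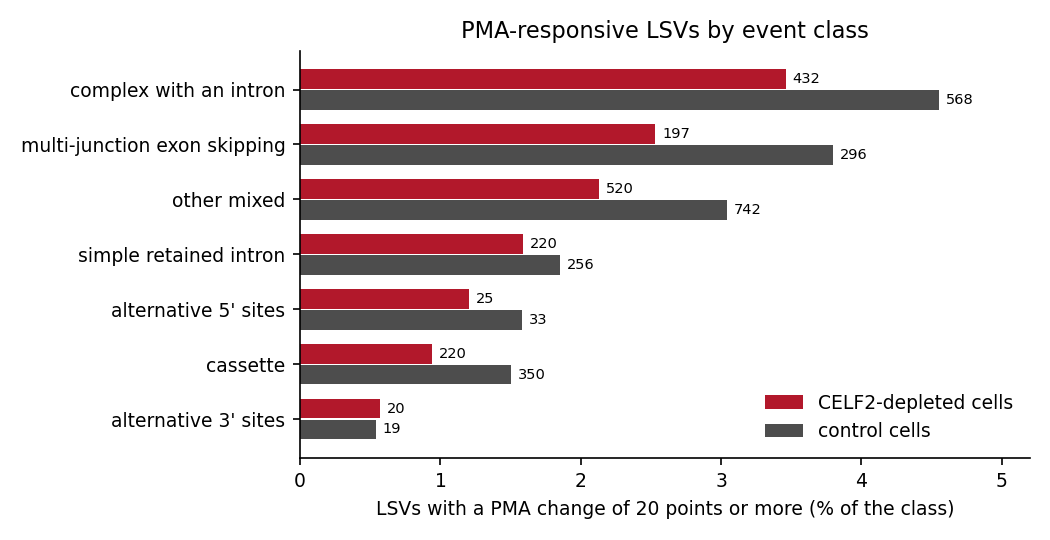
Share of LSVs, in percent of each event class (horizontal axis), with a PMA change of 20 points or more in CELF2-depleted cells (red) and in control cells (grey), with the number of LSVs beside each bar. Complex intron LSVs stand at 3.46% in depleted cells and alternative 3′ sites at 0.567%.

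Inclusion of cassette exons moved in both directions in nearly equal numbers in depleted cells. Of 19592 cassette exons 86 had higher inclusion with PMA (0.439%) and 91 lower (0.464%). In control cells 177 were higher (0.903%) and 114 lower (0.582%), so that 60.8% of the control changes were toward inclusion against 48.6% in depleted cells. The difference between these 2 percentages was not tested, since exons pooled from 2 libraries give no replicate error. Exons that rose in depleted cells started from a median of 25.2% and reached 56.7%, and those that fell started from 80.2% and reached 51.9%. With unread exon ends left out, the median length was 164 nucleotides for exons that rose, 124 for those that fell and 127 for all. A length divisible by 3 was found in 37 of 80 exons that rose (46.2%), in 43 of 89 that fell (48.3%) and in 38.9% of all.

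The source and the target LSV of 1 exon are read from different junctions apart from the shared skipping junction, and 3812 exons had both. Their PMA changes in depleted cells differed by a median of 0.1 points, with a 95th percentile of 6.2. In 9 exons both LSVs passed 20 points in the same direction, 4 with higher and 5 with lower inclusion. Of these exons 8 are given in turn.

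The largest rise was in MKI67, which encodes Ki-67, a protein of proliferating cells that coats mitotic chromosomes. Its 1080-nucleotide exon (chr10:129913192-129914271) was included at 47.9% without and 89.2% with PMA in depleted cells, and at 44.5% and 63.1% in control cells. The change of 41.3 points in depleted cells was larger than the 18.6 points in control cells, and the source and target LSVs gave 36.7 and 45.8. A 78-nucleotide exon of ATP6AP1L (chr5:81599847-81599924) went from 39.0% to 76.8% in depleted cells, while control cells stood at 96.9% and 96.6%. Here the depleted cells were low without PMA and moved toward the control level. The 96-nucleotide exon of ARFIP1, which encodes arfaptin-1, a protein that binds Arf-family GTPases at the Golgi, went from 6.2% to 32.3%, and in control cells from 5.1% to 16.2%. The 159-nucleotide exon of CENPE, a kinetochore motor protein, went from 75.2% to 96.7% in depleted cells and from 92.3% to 90.1% in control cells.

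Among the falls, the 102-nucleotide exon of RPGRIP1L, a protein of the ciliary transition zone, went from 88.4% to 52.3% in depleted cells, and control cells were at 43.8% and 44.7%. An 80-nucleotide exon of MON2 (chr12:62959732-62959811), a regulator of traffic between endosomes and the Golgi, went from 51.7% to 20.7%, and in control cells from 35.1% to 25.4%. A 419-nucleotide exon of NAA16 (chr13:41936591-41937009), a subunit of an N-terminal acetyltransferase, went from 70.4% to 45.5% in depleted cells and from 65.4% to 82.4% in control cells. A 602-nucleotide exon of ABCG1 (chr21:43696454-43697055), a cholesterol exporter, went from 91.4% to 68.3%, and from 88.1% to 73.1% in control cells. Within 5 points of 0 in control cells were ATP6AP1L, CENPE and RPGRIP1L.

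Exons with a single LSV reached larger changes, and the ones in this paragraph were chosen after their values were seen. A 30-nucleotide exon of PPFIA1 (chr11:70197100-70197129), a liprin scaffold protein of focal adhesions, went from 69.2% to 11.7% in depleted cells and stayed at 97.1% and 96.0% in control cells. The authors' deposited table gave an expected difference of 86.4 points at its skipping junction with PMA, close to the 84.3 points between the shares. A 187-nucleotide exon of FOXP1 (chr3:71247033-71247219), a transcription factor of lymphocyte quiescence, went from 7.7% to 62.4% in depleted cells and from 3.7% to 7.0% in control cells. An exon of IDI1 (chr10:1089939-1090111), an enzyme of isoprenoid synthesis, went from 91.2% to 46.8%, and from 53.0% to 44.5% in control cells. A 184-nucleotide exon of FBRSL1 (chr12:133136633-133136816) fell in both kinds of cells, from 69.4% to 25.4% and from 91.3% to 39.8%. The largest change of all, in CYP4V2, a fatty acid hydroxylase, took an exon with an unread outer end from 5.9% to 83.7%, and from 44.6% to 51.9% in control cells.

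**Figure D2:**
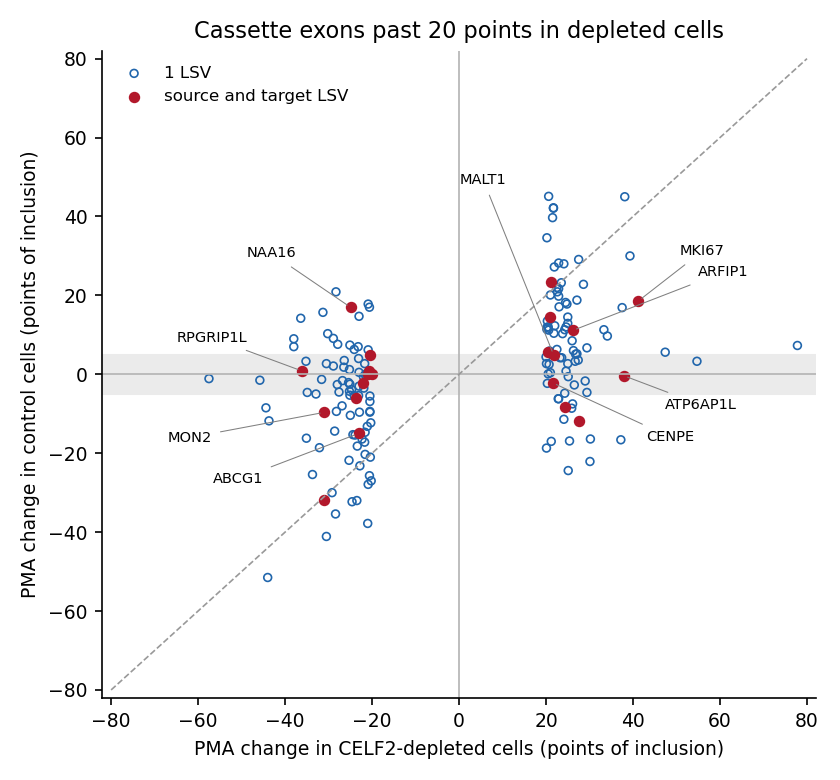
PMA change of inclusion, in percentage points, in CELF2-depleted cells (horizontal axis) and in control cells (vertical axis) for the 177 cassette exons past 20 points in depleted cells, the gap in the middle being made by that rule. Filled points have a source and a target LSV and open points 1 LSV, the dashed line marks equal change, and the grey band holds the 53 exons within 5 points of 0 in control cells.

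The exons past the rule in depleted cells moved by less in control cells. Of the 177 exons 125 (70.6%) had the same sign in control cells, 34 (19.2%) were past 20 points in the same direction and 3 in the other, and 53 (29.9%) were within 5 points of 0. Their median control change, counted in the direction of the depleted cells, was 5.5 points against a median size of 24.4 in the cells that chose them. Choosing extremes in 1 kind of cells by itself makes the other look smaller, and choosing in control cells gave a like result. The 291 exons past the rule in control cells had a median of 4.35 points in depleted cells, with 34 (11.7%) past 20 points in the same direction. Over all LSVs 290 of the 1634 (17.7%) were past 20 points the same way in control cells and 40 the other way, with a median of 6.0 points. From the control side 291 of 2264 (12.9%) were, with a median of 5.6. These PMA changes in depleted and control cells share no library.

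At the changed junction, 332 of the 1634 LSVs had a depleted share at least 20 points from the control share without PMA only, 405 with PMA only, and 108 in both states. In the other 789 depleted and control shares were within 20 points in both states. The changed junctions of RPGRIP1L and IDI1 were this far from control without PMA only, the larger FOXP1 change with PMA only, and the PPFIA1 junction in both states.

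Retained introns changed more often toward splicing than toward retention. Of 9215 introns 47 were retained more with PMA in depleted cells (0.51%) and 103 less (1.12%). Control cells had 80 higher (0.868%) and 108 lower (1.17%). The excess of falls in depleted cells rested on introns read from 1 LSV, with 29 higher and 85 lower. In the 4609 introns with both LSVs 18 were higher and 18 lower. Source and target LSVs agreed less well than for exons, with a 95th percentile of 9.66 points, and in DMXL1 the source LSV gave 50.8 points and the target LSV 10.5. Introns that fell started from a median of 75.0% and ended at 44.2%, and those that rose went from 36.7% to 59.9%. The median length was 117 nucleotides for introns that fell, 100 for those that rose and 103 for all.

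In 21 introns both LSVs passed 20 points in the same direction, 11 with more and 10 with less retention. The largest fall was in ESYT3, an extended synaptotagmin of membrane contact sites, whose intron (chr3:138187560-138187660) went from 37.9% to 3.1% in depleted cells against 7.3% and 5.1% in control cells. An intron of MED21 (chr12:27182683-27183090), a Mediator subunit, went from 81.2% to 49.9%, with 72.0% and 76.6% in control cells. RHOBTB2 went from 41.8% to 10.8% (chr8:22865260-22865351), with 23.8% and 29.7% in control cells. TIMM10B, a chaperone of mitochondrial import, went from 83.3% to 54.3% (chr11:6504029-6504069), with 79.8% and 84.0% in control cells. These 4 fell in depleted cells, and their control cells changed by -2.25 points in ESYT3, 4.6 in MED21, 5.9 in RHOBTB2 and 4.25 in TIMM10B. In the zinc finger gene ZNF446 (chr19:58988928-58989003) both kinds of cells went down, from 40.8% to 13.1% in depleted and from 25.6% to 10.9% in control cells. VPS9D1 (chr16:89783033-89783137) fell from 92.1% to 66.2%, less than the fall from 93.0% to 33.2% in control cells.

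Among introns that rose, an intron of MSH5, a mismatch repair family gene of meiosis, went from 31.3% to 56.0% (chr6:31732133-31732212), with 32.1% and 28.5% in control cells. The same intron is also listed under the readthrough gene MSH5-SAPCD1. NKTR, a cyclophilin-domain protein, went from 22.2% to 46.8% (chr3:42674605-42674700), with 33.8% and 40.3% in control cells. CCDC78, a centriole protein, went from 69.5% to 94.1% (chr16:774807-774906), with 66.7% and 63.2% in control cells. SCNN1D, a sodium channel subunit, went from 33.3% to 56.2% (chr1:1222977-1223052) in depleted cells and from 31.1% to 12.1% in control cells. XRCC3, a homologous recombination protein, went from 37.8% to 62.0% (chr14:104165355-104165469) and more steeply in control cells, from 16.2% to 52.4%.

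Some genes responded along a whole stretch of introns. PRPF40B, a splicing factor associated with the U1 particle, had the most LSVs past the rule, 11 of its 28, and 9 in control cells. Of its 11 listed introns the 6 nearest the 3′ end all rose, by 22.9 to 43.5 points when averaged over their LSVs. The first of these (chr12:50030633-50031252) went from 16.5% to 59.95% in depleted cells and from 18.8% to 47.3% in control cells. The 6 introns were higher with PMA in control cells too, by 16.7 to 28.5 points, and the 5 introns upstream changed by 10.3 points or less in depleted cells. For the largest PRPF40B change the authors' expected difference was 0.53 of the difference between the shares.

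RECQL4, a DNA helicase, moved the other way and had 8 of 31 LSVs past the rule, with 0 in control cells. In unstimulated depleted cells its introns toward the 3′ end were retained far above control, and PMA lowered them. An intron of 112 nucleotides (chr8:145737173-145737284) stood at 49.4% without and 26.2% with PMA in depleted cells, against 5.2% and 13.5% in control cells. Of 15 listed introns 14 were lower with PMA in depleted cells, 3 of them by 20 points or more, and 0 of 15 changed by 20 points in control cells. In those 3 introns the depleted share with PMA was still above the control share, but in 2 of them the authors' expected difference was small. It was 0.61 and 0.51 points in the intron chr8:145737451-145737526, with shares of 28.2% and 22.95%. In the intron chr8:145737945-145738024 it was 8.47 points in the target LSV and 0.11 in the source LSV. MIB2, a ubiquitin ligase of the Notch pathway, had 7 of 30 LSVs past the rule and 2 in control cells. An intron with both LSVs (chr1:1563560-1563652) went from 40.9% to 61.1% in its source LSV, and from 36.0% to 49.2% in control cells. The authors' expected difference with PMA was 6.45 of 11.9 points there and 19.28 of 19.5 in the target LSV. FAM111A, a protease linked to DNA replication, had 6 of 8 LSVs past the rule and 1 in control cells. In the target LSV its junction chr11:58911168-58913300 went from 16.4% to 59.4% in depleted cells and from 20.2% to 26.3% in control cells. In the source LSV the same junction went from 14.3% to 44.9%, and in control cells the other way, from 27.0% to 13.5%. The authors' expected difference in this source LSV was only -2.95 points without PMA, a low ratio, and 32.18 with PMA. After these 4 genes, 16 genes tied with 4 LSVs each, and none of these is singled out.

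**Figure D3:**
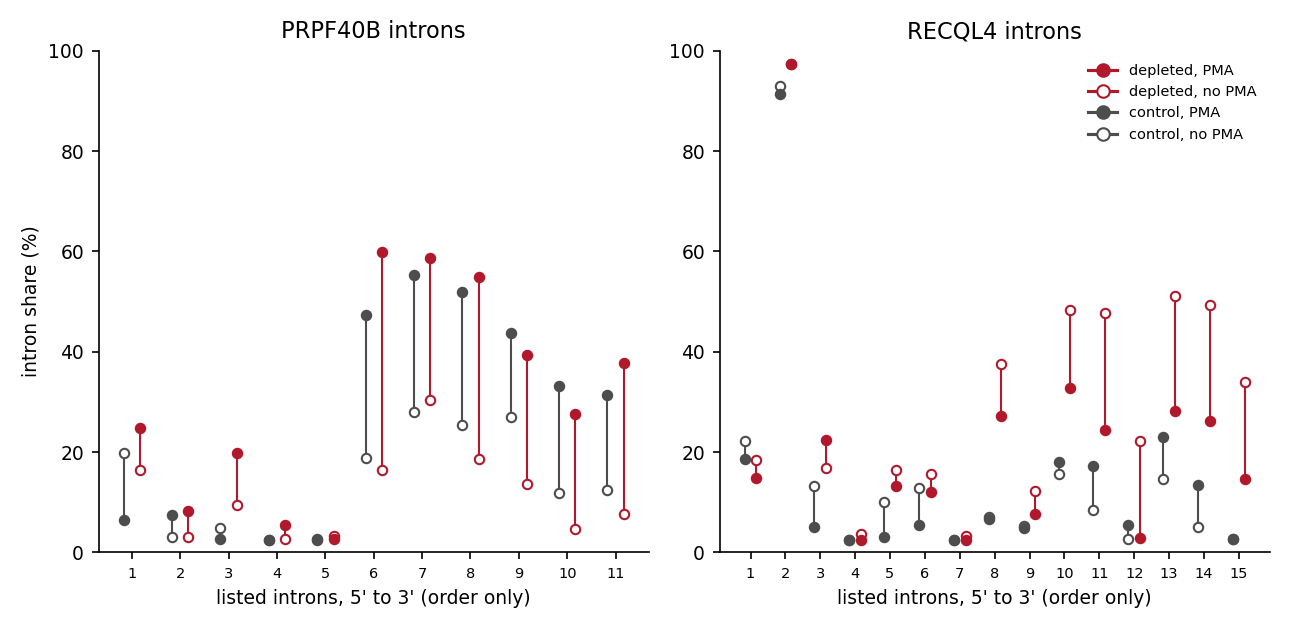
Share of each listed intron, in percent and averaged over its LSVs (vertical axis), along PRPF40B (left) and RECQL4 (right), ordered 5′ to 3′ (horizontal axis), without PMA (open points) and with PMA (filled points) in depleted (red) and control (grey) cells. Introns 6 to 11 of PRPF40B are higher with PMA in both kinds of cells, while the 3′ introns of RECQL4 are high in unstimulated depleted cells and lower with PMA.

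Alternative splice sites gave few changes. In NOMO1, an endoplasmic reticulum membrane protein, the junction chr16:14966186-14968875 to 1 of 2 alternative 3′ sites went from 22.2% to 58.7% in depleted cells and from 9.0% to 28.2% in control cells. COG1, a Golgi tethering subunit, went from 17.8% to 52.9%, with 36.1% and 40.8% in control cells, but the authors' expected difference without PMA was 0.33 of the difference between the shares. B4GALNT1, a ganglioside synthase, fell from 89.7% to 58.0%, with 86.5% and 80.5% in control cells. LMO7 went from 7.5% to 38.4%, and from 16.2% to 34.1% in control cells. Among alternative 5′ sites, the noncoding gene SLC16A1-AS1 changed most and in both kinds of cells, from 17.3% to 79.8% and from 20.0% to 72.9% (chr1:113500344-113503099). DISC1 fell from 53.6% to 13.9%, with 33.9% and 34.4% in control cells and a ratio of 0.43 in the authors' table. PCNT, a centrosomal scaffold, went from 30.8% to 65.3%, and from 49.1% to 65.7% in control cells.

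The largest changes in LSVs of several choices were as follows. In ZBTB45, a zinc finger gene, the junction chr19:59029040-59031109 went from 11.2% to 87.4% in depleted cells and from 66.8% to 91.9% in control cells. CRACR2A, a calcium sensor that regulates CRAC channels in T cells, went from 21.9% to 92.7% at chr12:3749945-3750898, and from 23.1% to 46.6% in control cells. In EVL, an Ena/VASP actin regulator, the junction chr14:100531848-100551024 went from 22% to 83.0%, and from 55.4% to 96.8% in control cells. These 3 rose in both kinds of cells. USP44, a deubiquitinase of the mitotic checkpoint, went from 7.4% to 67.4% (chr12:95928102-95945048) while control cells held 66.0% and 71.9%. PPP1R3E, a glycogen-targeting phosphatase subunit, fell from 97.0% to 38.1% (chr14:23768750-23769967) with control cells at 96.5% and 96.1%. AKR1E2, an aldo-keto reductase, fell from 88.3% to 25.2%, with 46.4% and 31.0% in control cells. An intron of SLC25A29, a mitochondrial carrier of basic amino acids, fell from 90.6% to 32.9% (chr14:100762072-100762156), with 48.6% and 52.0% in control cells. In SDHAP3, a pseudogene whose reads may be shared with SDHA, a junction went from 2.5% to 60.9% and from 40.5% to 83.7%.

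PTPRC is the classical splicing target of T cell activation. Skipping of its exons 4 to 6 yields the shorter CD45 isoforms of activated and memory T cells. In depleted cells 4 of its 19 LSVs passed 20 points, and 0 in control cells. At the target LSV of exon 7, the junction from exon 6 fell from 71.9% to 33.0% in depleted cells and went from 69.0% to 50.3% in control cells. The junction from exon 3, which skips all 3 variable exons, went from 2.5% to 23.2% in depleted cells and from 2.8% to 11.8% in control cells. The junction from exon 5, which skips exon 6 alone, went from 26.9% to 43.7%, and from 27.0% to 38.4% in control cells. Unstimulated depleted and control cells were thus alike in all 3 choices. With PMA the groups stood apart at the junctions from exon 6 and exon 3, and less at that from exon 5. In the authors' deposited table the expected difference between depleted and control cells with PMA was -17.7 points at the exon 6 junction. It was 11.68 points at the exon 3 junction and only 2.2 at the exon 5 junction.

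Other junctions of these PTPRC exons moved in the same sense, apart from the one from exon 3 to exon 5. The share of junctions leaving exon 3 for exon 4 went from 31.2% to 7.7% in depleted cells and from 30.4% to 15.3% in control cells. The share leaving exon 3 for exon 7 went from 2.5% to 27.2% there, and from 6.5% to 14.3%. The share leaving exon 3 for exon 5 went from 66.9% to 62.7% in depleted cells, but from 58.3% to 63.7% in control cells. The junction from exon 4 into exon 5 went from 32.2% to 7.1%, and from 34.8% to 18.3% in control cells. From exon 5, the junction into exon 6 went from 71.1% to 43.4%, and from 67.6% to 55.0%. Apart from the junction from exon 3 to exon 5, these junctions changed in the same direction in both kinds of cells and by more in depleted cells. Whether that difference exceeds the spread between libraries cannot be tested with pooled values.

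**Figure D4:**
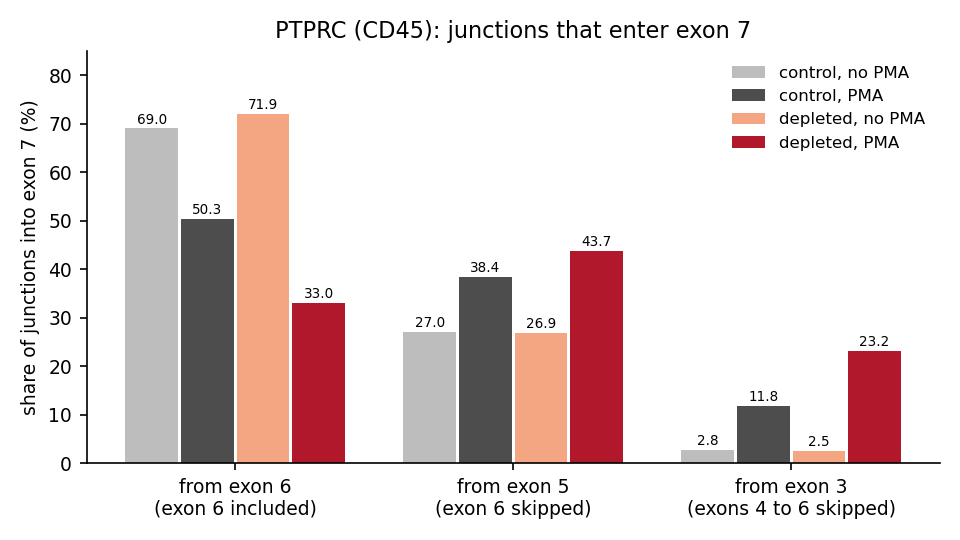
Share, in percent (vertical axis), of the 3 main junctions that enter PTPRC exon 7 in the 4 groups, 1 pooled value of 2 libraries per bar. Inclusion of exon 6 is 71.9% and 33.0% in depleted cells without and with PMA, and 69.0% and 50.3% in control cells.

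CELF2 itself had 11 LSVs, of which 0 passed the rule in depleted cells and 5 in control cells. The junction that enters chr10:11291116-11291164 from the 83-nucleotide exon upstream went from 97.3% to 78.0% in depleted cells and from 95.1% to 73.5% in control cells, a like change. The junction chr10:11308640-11312629, which includes the 80-nucleotide exon before it, went from 97.3% to 89.3%, and from 91.7% to 53.9% in control cells. The intron chr10:11371253-11371331 was at 5.9% and 6.7% in depleted cells, and at 7.7% and 68.1% in control cells. The depleted cells carry hairpins against this transcript.

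The genes reported for splicing changes in activated JSL1 or Jurkat cells were gathered in a list with earlier results of these data known, so the list gives no independent evidence. Of 23 genes 8 had an LSV past the rule in depleted cells, with 13 of 312 LSVs (4.17%) against 1.87% over all LSVs. In control cells it was 18 LSVs (5.77%) against 2.59%. Beside PTPRC, the 33-nucleotide exon of MALT1, the paracaspase that relays antigen receptor signals to NF-kappaB, went from 69.5% to 91.2% in depleted cells, with 37.4% and 42.3% in control cells. PPP3CB, which encodes calcineurin A beta, fell from 93.6% to 58.5% at chr10:75198178-75199630 and stood at 97.3% and 96.5% in control cells. An intron of U2AF1L4, a relative of the 3′ splice site factor U2AF1, went from 43.6% to 77.9% (chr19:36234110-36234196) and in control cells from 68.2% to 47.1%. A junction of CLSTN1 fell from 87.6% to 64.5%, with 83.8% and 88.5% in control cells, and a junction of MBNL1, a splicing regulator, from 95.7% to 75.6%, with 97.5% and 92.3%. Retention of an intron of CLK1 (chr2:201724470-201724847), a kinase of SR proteins, fell from 57.4% to 37.2%, while control cells went the other way, from 41.4% to 58.7%. A junction of GATA3, a T cell transcription factor, went from 18.6% to 39.2%, with 32.4% and 32.8% in control cells.

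The other 15 genes of this list did not pass the rule in depleted cells. In TRAF3, an adaptor of NF-kappaB signalling, the junction into its alternative exon (chr14:103352606-103355897) was at 92.5% and 94.6% in depleted cells, while control cells went from 92.1% to 60.8%. The largest change of any TRAF3 junction was -5.4 points in depleted cells. FYN, a Src-family kinase, changed by 14 points at most, and LEF1, a transcription factor, by -17.5. TIAL1 reached 19.2, CASP8 19.8, MBNL2 18.4, IKZF1 15.2 and VAV1 -12.2. HNRNPC reached 11.1, SEC16A 10.8, MAP2K7 -10.3, MAP3K7 -5.6, CASP9 1.9 and CD6 -0.9, and CELF2 is described above. MAP3K7, MAP2K7, SEC16A, TIAL1 and HNRNPC, like TRAF3 and CELF2, had LSVs past the rule in control cells.

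In the lists that follow, values are shares of the most changed junction of a gene unless an intron or exon is named. Over all LSVs 1.87% passed the rule in depleted cells and 2.59% in control cells. Of all genes 11.4% had such an LSV in depleted cells, and genes with more LSVs had more chances. Genes of T cell receptor signalling had 10 of 561 LSVs past the rule (1.78%), near the 1.87% of all LSVs, in 5 of 50 genes. In CD3D, a chain of the T cell receptor complex, the junction chr11:118211308-118211585 went from 11.4% to 55.4% in depleted cells and from 39.1% to 23.2% in control cells. The retained intron of the same source LSV (chr11:118211309-118211396) went from 87.3% to 43.4%, and from 60.1% to 75.1%. In the target LSV at the other end both choices were rare: the same junction had 2.5% and 2.8% in depleted cells and 2.5% in both control states. The intron had 2.5% and 5.4% there in depleted cells, and 2.5% and 4.7% in control cells. Most of that target LSV was the junction chr11:118211308-118213268, with 97.5% and 91.0% in depleted cells. In WAS, an activator of actin branching, the spliced junction of a retained intron went from 28.1% to 55.3%, so retention was lower with PMA. Control cells had 25.9% and 30% at this junction. Genes of protein kinase C and diacylglycerol signalling gave 6 of 348 (1.72%) in 4 of 24 genes. RASGRP2, an exchange factor for Rap, fell from 40.4% to 8.9%, with 21.8% and 18.3% in control cells. Retention of an intron of PRKD2 (chr19:47219854-47220071), a kinase downstream of protein kinase C, fell from 74.2% to 47.8%, with 59.9% and 59.6% in control cells. The spliced junction of a retained intron fell in UNC13D, a granule priming factor, from 92.4% to 70.0%. Such a junction also fell in PLCB3, a phospholipase C, from 91.9% to 71.4%, so retention was higher with PMA in both. Control cells held 92.0% and 93.0% at this junction in UNC13D and 91.8% and 94.9% in PLCB3.

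NF-kappaB and TNF receptor genes gave 8 of 262 LSVs (3.05%), against 1.87% over all LSVs, in 6 of 32 genes. In control cells it was 6 LSVs (2.29%) against 2.59%. IKBKB, the catalytic IKK-beta subunit, went from 44.4% to 85.7% at chr8:42128987-42129601, with 96.8% and 96.4% in control cells. TNFAIP3, the A20 deubiquitinase, fell from 56.0% to 24.8% at chr6:138188679-138192350, and in control cells went from 21% to 37.9%. Retention of an intron of IRAK4 (chr12:44164908-44165022), a kinase of Toll-like receptor signalling, fell from 58.1% to 27.2%, with 14.5% and 33.7% in control cells. In TRAF2, a TNF receptor adaptor, retention of the intron chr9:139793052-139793164 fell from 39.1% to 7.1%, with 10.7% and 2.5% in control cells. In these 4 genes, picked for the largest changes of the list, depleted and control cells were closer with PMA than without. They were further apart with PMA in the MALT1 exon given above and in an intron of NFKB2. That intron had 26.5% in depleted and 30.3% in control cells without PMA, and 55.4% and 8.1% with PMA. MAPK and small GTPase genes gave 6 of 762 LSVs (0.787%) in 6 of 62 genes, below the share over all LSVs, and 22 (2.89%) in control cells. MAPK8, the JNK1 kinase, went from 45.5% to 75.7%, with 48.1% and 56.7%. ARHGAP4 fell from 89.0% to 61.9%, with 93.3% and 86.6%. GIT2 fell from 52.4% to 25.3%, and from 37.2% to 2.8% in control cells. BRAF went from 22.7% to 46.3%, and from 14.6% to 43.3% in control cells.

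Lymphoid transcription factors gave 10 of 479 LSVs (2.09%), near the 1.87% of all LSVs, in 6 of 46 genes. Beside FOXP1, a junction of RUNX1 (chr21:36259393-36421139), a factor of haematopoietic differentiation, went from 7.7% to 46.0%, and from 23.8% to 45.6% in control cells. ZEB1, a repressor of IL2, went from 31.5% to 54.1%, and from 44.5% to 55.3% in control cells. ATF2 fell from 81.6% to 59.7%, with 59.0% and 57.4% in control cells. Chromatin regulators gave 28 of 1404 (1.99%) in 19 of 91 genes. NCOR1, a nuclear receptor corepressor, included a 549-nucleotide exon (chr17:16101485-16102033) at 28.8% without and 66.0% with PMA, and at 51.0% and 34.4% in control cells. BPTF, a reader of H3K4 methylation, went from 59.2% to 92.7%, and from 64.6% to 94.7% in control cells. DNMT3A, a de novo DNA methyltransferase, went from 40.3% to 71.7%, with 24.8% and 33.3% in control cells.

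Splicing regulators gave 14 of 1212 LSVs (1.16%) in 13 of 86 genes in depleted cells, and 56 (4.62%) in control cells. The shares over all LSVs were 1.87% and 2.59%. HNRNPL, a repressor of CD45 exons, went from 51.6% to 81.1%, and from 62.6% to 78.8% in control cells, with a ratio of 0.38 in the authors' table. Retention of an intron of LUC7L3 (chr17:48828375-48828411), a U1-associated protein, fell from 58.6% to 31.1%, with 64.9% and 64.3% in control cells. In RBM25, retention of the intron chr14:73567071-73567421 fell from 60.6% to 34.5%, with 46.9% and 56.5% in control cells. A junction of RBM15 went from 8.5% to 36.5%, with 28.7% and 30.6% in control cells. Core spliceosome genes gave 15 of 608 (2.47%), and 11 of these 15 LSVs were those of PRPF40B, in 4 of 53 genes. Nonsense-mediated decay and RNA turnover genes gave 4 of 618 (0.647%) in 3 of 45 genes, where PUM2, a Pumilio repressor, fell from 67.7% to 39.3%, and from 54.2% to 18.8% in control cells.

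Actin and adhesion genes gave 22 of 1098 LSVs (2.0%), near the 1.87% of all LSVs, in 15 of 79 genes. SSH2, a cofilin phosphatase, fell from 60.8% to 17.8% at chr17:27999147-28003838, and in control cells went from 56.3% to 73.2%. MYO18A fell from 48.1% to 10.3%, and from 67.7% to 40.4% in control cells, and MYO5A, a vesicle motor, went from 18.6% to 47.4%, and from 14.2% to 46.3%. Cell cycle genes gave 18 of 1019 (1.77%) in 12 of 86 genes, with a 462-nucleotide exon of MAD1L1, a spindle checkpoint protein, going from 3.1% to 37.2%, and from 2.5% to 12.2% in control cells. Apoptosis genes gave 6 of 400 (1.5%) in 6 of 47 genes. In this list DEDD went from 27.7% to 56.2%, with 67.8% and 65.8% in control cells, and BCL2L11, the pro-apoptotic BH3-only protein BIM, from 6.1% to 29.4%, with 19% and 4.2%. Vesicle trafficking genes gave 15 of 1026 (1.46%) in 10 of 78 genes. An exon of DNM2, a dynamin, fell from 38.2% to 3.3%, with 9.4% and 4.8% in control cells, and EXOC7, an exocyst subunit, went from 27.8% to 64.0%, and from 44.6% to 78.3% in control cells.

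**Figure D5:**
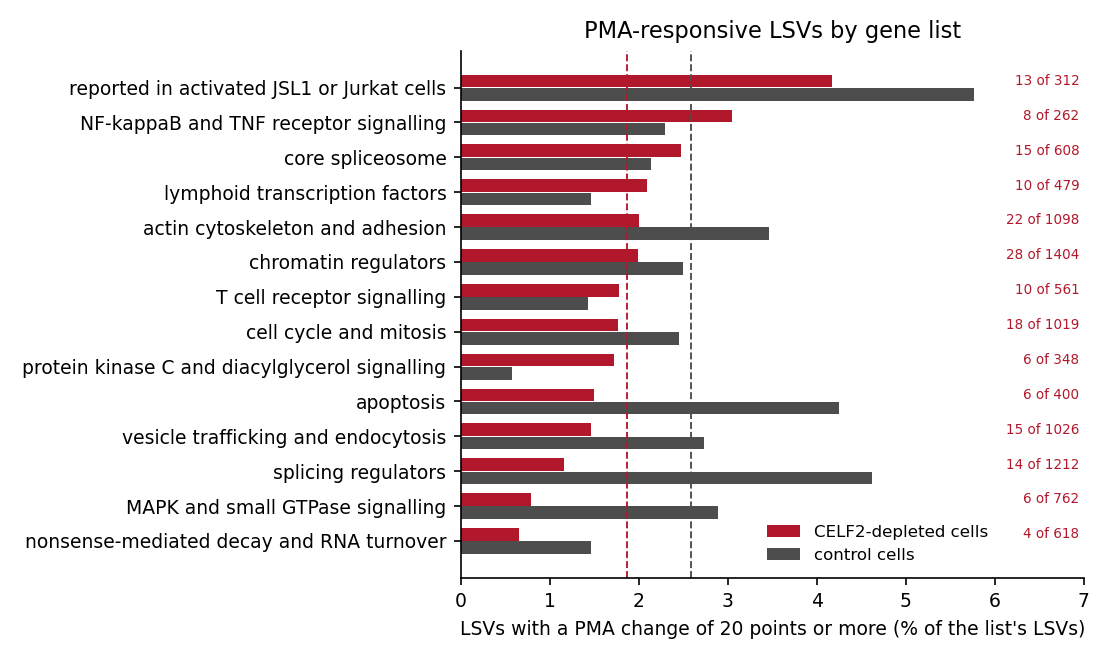
Share of each list's LSVs, in percent (horizontal axis), with a PMA change of 20 points or more in depleted cells (red, with the count at the right) and control cells (grey), and dashed lines at the shares over all LSVs (1.87% and 2.59%). Splicing regulators stand at 1.16% in depleted and 4.62% in control cells.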

How the data were processed

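Per the labels' protocols, polyadenylated RNA went into stranded TruSeq libraries. STAR 2.5.1b and the hg19 build are listed in the submitters' processing notes. The authors deposited 2 tables, 1 per state, and per the file headers each gives for every LSV junction the expected share (a fraction, printed here as percent) in control and in depleted cells and the expected change between them. Both libraries of a group are pooled in 1 value, reads per LSV are not given, and 0 columns with values of single samples were set aside. The 2 tables were quantified separately, so values set across them have no test and no error.

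Tables were joined on the LSV identifier, and every shared LSV had the same junctions in both. Classes came from the tables' event columns, except that alternative 3′ and 5′ sites were taken from junction coordinates, since the 5′ column was never set alone. Inclusion of a cassette exon was read from the shorter of the 2 junctions and averaged over source and target LSVs of the same exon. LSVs marked de novo (67.6%, all with introns among them) were kept. Overlapping gene identifiers, paralogs and pseudogenes can share reads. The size rule was 20 points. The steps were tested on simulated data with Python 3.11.15, pandas 2.3.3 and numpy 2.4.6.

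Members, gene lists and the rule for named genes were chosen with earlier results of these data known. The rule named exons and introns with both LSVs past 20 points, the largest changes of each other class, the top members of 14 lists and the genes with most LSVs. Some items that the rule named are not reported here. Alternatives were sizes of 10 and 30 points, other sets of LSVs, and values from 1 LSV, with further ones added after seeing the data.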

Additional observations from a re-analysis of the deposited data

Results flagged for a closer look

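Of the 1634 LSVs that PMA moved by 20 points or more in depleted cells, 290 (17.7%) moved as far the same way in control cells. In 40 of the 1634 control cells moved by 20 points or more the other way. Over all 87517 LSVs 2.59% passed 20 points in control cells in either direction. The 6 below are the largest, 1 per gene, among those of the 40 whose expected difference in the authors' table was at least 0.8 of the difference between the shares. That ratio was read only in the state with the larger difference. The 6 were chosen after their values were seen. Each was flagged because the pooled depleted and control values moved in opposite directions, and the difference was not tested, since each group has 1 pooled value. Retention of an intron of SIN3B (chr19:16973836-16973907), a scaffold of histone deacetylase complexes, fell by 39.5 points, from 82.9% to 43.4%, while control cells went from 47.8% to 74.9%. A junction of RNF146, a ubiquitin ligase, fell by 36.2 points, from 69.0% to 32.8%, against 51.9% to 72.5% in control cells. A junction of RP11-1212A22.1 rose by 35.5 points in its target LSV, from 18.4% to 53.9%, against 42.7% to 18.6%. The source LSV of the same exon changed by 19.8 points in depleted cells. Averaged over both LSVs, inclusion went from 30.6% to 58.25%, and from 48.2% to 36.25% in control cells, a smaller opposite change. A junction of ZGRF1 fell by 34.3 points, from 96.2% to 61.9%, against 63.2% to 83.3%. Retention of the U2AF1L4 intron rose by 34.3 points in its target LSV, and its source LSV, from 30.1% to 62.5% in depleted cells, had 48.0% and 46.8% in control cells. A junction of RABL2A, a small GTPase of ciliary traffic, rose by 33.0 points, from 25.4% to 58.4%, against 51.8% to 7.7%.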

How the results depend on the processing

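No paired analysis was possible because the tables hold 1 pooled value per group, and leaving out a replicate was not possible for the same reason. Of LSVs and genes past the rule, 360 and 305 were left at 30 points, and 8210 and 4145 were reached at 10 points. Without de novo LSVs 482 and 413 were left, and 533 and 449 among LSVs of 2 choices. With an expected difference of at least 0.8 of the difference between the shares, 934 and 747 were left. That ratio was read only in the state with the larger difference. Cassette exons numbered 35 at 30 points, 985 at 10 points, 21 with both LSVs and 108 from source LSVs alone, and the share with higher inclusion was 37.1% at 30 points. Introns numbered 34 at 30 points, 711 at 10 points and 36 with both LSVs. The share of introns with higher retention was 17.6% at 30 points, 44.2% at 10 points, 39.6% over any LSV with an intron and 50% with both LSVs, against 31.3%, and the cause was not tested. The median control change of the exons was 2.3 points with both LSVs, against 5.5. Keeping 1 LSV per set of junctions moved no count by over 1.5 times. The looser join gave no separate value, since no shared LSV differed in its junctions, and leaving out de novo LSVs left no intron. Named exons and introns numbered 25, and none of their 50 source or target values had another sign than the mean. Read depth per LSV is not in the tables and limits every value.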

Other observations

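The following values were chosen after they were seen. PTPRS, a receptor tyrosine phosphatase, had 2 cassette exons that fell in depleted cells. Its 609-nucleotide exon (chr19:5222700-5223308) went from 89.9% to 51.9%, with 77.6% and 86.6% in control cells. Its 306-nucleotide exon (chr19:5231321-5231626) went from 94.1% to 58.9%, with 89.1% and 92.4%. A junction of IL32, a cytokine of activated lymphocytes, went from 3.6% to 49.3% in depleted cells and stood at 2.5% in control cells in both states. An intron of NFKB2, the precursor of the p52 subunit (chr10:104155554-104155644), went from 26.5% to 55.4% in depleted cells and from 30.3% to 8.1% in control cells.

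The 5 introns that follow, also chosen after their values were seen, were each read from 1 LSV. An intron of GPI, a glycolytic enzyme, went from 75.0% to 2.9% in depleted cells, with 35.3% and 37.6% in control cells. An intron of H2AFY, the histone variant macroH2A1, went from 88.9% to 25.9%, and from 90.6% to 68.0% in control cells. An intron of RPL28 went from 54.9% to 18.4%, and from 66.8% to 35.0%, while an intron of RPL23A went from 32.8% to 60.5%, and from 70.4% to 56.3%. An intron of NDUFA3, a subunit of respiratory complex I, went from 3.3% to 39.4%, and from 27.7% to 41.5%.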
